A study of Homo sapiens with 20 samples.

Results

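The genes described here are the keratins of simple epithelia and of wet, stratified mucosa, together with KRT80, as measured by RNA-seq in NTERT keratinocytes with and without the eIF2 kinase GCN2. They were taken by name, after Ensembl identifiers were mapped to symbols, as KRT8, KRT18, KRT7, KRT19, KRT4, KRT13 and KRT80, which makes 7 genes of the 57500 listed in each library and 7 of 67 genes with a keratin symbol. NTERT cells are human epidermal keratinocytes immortalized with telomerase. By the study's methods, cultures were first held for 36 h in medium with serum and calcium, which starts their differentiation. The study's results text gives a longer time for this step. Each genotype, WT and GCN2KO, was taken unwounded and after HDW, which makes 4 groups with 5 replicates each, 20 samples in all. HDW is high-density wounding, in which a row of pipet tips is dragged over the monolayer lengthwise and crosswise to leave a grid of scratches, and RNA was taken 6 h later. The GCN2KO cells are a pool of cells edited with CRISPR/Cas9 in the GCN2 gene and not a single clone. The study describes its WT cells as having received a control guide RNA. Nothing in the labels says whether replicates came from separate thaws or passages, so the p-values measure the spread between these cultures, which may be technical.

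Keratins are intermediate filament proteins that assemble as obligate pairs of an acidic type I and a basic type II chain, so that a filament needs a partner of each kind. KRT8 (type II) and KRT18 (type I) are the first pair made in embryonic and simple epithelia, such as liver and gut, where KRT7 (type II) and KRT19 (type I) are often added. KRT4 (type II) and KRT13 (type I) pair above the basal layer of the mouth, the esophagus and other mucosa that do not cornify. KRT80 is a type II keratin found in many epithelia, with protein near cell borders in cells that are well into differentiation. Intact epidermis makes mainly KRT5 and KRT14 in its basal layer and KRT1 and KRT10 above it, with KRT6 and KRT16 added at wound edges.

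The libraries held 14083504 to 34611570 counts on genes, with a median of 32243580. Within a group, Pearson's r of log2 CPM between libraries ran from 0.9885 to 0.9958 across genes. EIF2AK4, which encodes GCN2 and checks the labels, had 3980.2 to 4555 normalized read counts in the 10 WT samples and 806 to 961.6 in the 10 GCN2KO samples, so that no sample went against its label. Normalized read counts are counts divided by TMM effective library sizes and brought back to the mean library. All 7 epidermal keratinocyte markers were present, at a summed 14630 to 19620 CPM per sample, but not at the same level in both genotypes. In unwounded GCN2KO against WT cells 2 of these 7 were higher and 4 lower at the adjusted p alone, beside 33.4% and 33.1% of all genes. The group mean of IVL, a differentiation marker, was 3126 normalized read counts in WT and 11072 in GCN2KO unwounded cells, while KRT14 went from 63316 to 35134, the hemidesmosome collagen COL17A1 from 82941 to 32321 and the integrin ITGA6 from 41393 to 24861. KRT5, the basal partner of KRT14, went the other way, from 233782 to 329191, and DSG3 went from 22739 to 24563. The part of these marker differences in the keratin differences was not tested. Markers of Merkel cells, which also make KRT8 and KRT18, summed to 1.76 to 2.39 CPM in the WT samples and 2.998 to 5.37 CPM in the GCN2KO samples. Their defining genes ATOH1 and INSM1 had no count in any library, KRT20 had 0 to 4 counts, and SYP, with 3 to 85 counts, made most of the difference. ISL1, another marker of these cells, was present in every library, with 24 to 92 counts, and made most of the sum in WT samples. Of the mesothelial markers, MSLN carried nearly all of the signal and was lower in GCN2KO cells, while WT1 had 0 to 6 counts and CALB2 0 to 1. Fibroblast markers summed to 23.1 to 36.2 CPM, mostly COL1A1, and melanocyte and endothelial markers to at most 3.68 and 1.31 CPM. In bulk RNA, a larger share of cells that make a keratin and more of its RNA per cell cannot be told apart.

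By position, 5 of the 7 genes lie in the keratin cluster of chromosome 12 of GRCh38, in the order KRT80 (52168996 to 52192014, minus strand), KRT7 (52232520 to 52252186, plus), KRT4 (52806549 to 52814116, minus), KRT8 (52897187 to 52949954, minus) and KRT18 (52948871 to 52952906, plus). KRT18 is the type I gene of this type II cluster, while KRT13 (41500981 to 41505705, minus) and KRT19 (41523617 to 41528308, minus) lie among the other type I genes on chromosome 17. KRT8 and KRT18 share 525 exonic bases on opposite strands, which is 7.63% of the exonic bases of KRT8 and 17.1% of those of KRT18. It is not stated whether counting used strand, so reads in that stretch cannot be assigned to either gene with certainty. KRT7 shares 7.85% of its exonic bases with KRT7-AS and KRT87P, and KRT13 shares 16.3% with an antisense lncRNA that had no count in any library. Processed pseudogenes can also resemble their parent genes. Only reads that map to 1 place were counted, so pseudogene counts do not measure the reads that a parent lost. The 51 KRT8 pseudogenes together held 2.20% to 2.79% of the counts of KRT8 per library, and the 67 KRT18 pseudogenes 0.751% to 1.57% of those of KRT18, with no pseudogene counts for KRT19 and no listed pseudogenes named for KRT7, KRT4 or KRT13.

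KRT4 and KRT8, both type II genes, are the only 2 of the 7 with an entry in the RefSeq promoter table for GRCh38.p14. The 250 bases before each start are shown for that reason. Any link between these windows and the genotype differences was not tested. They run from 5′ to 3′ on the strand of the gene, from chr12:52814117-52814366 (minus) for KRT4 and chr12:52926470-52926719 (minus) for KRT8. The KRT8 entry begins at an upstream start inside the gene's annotated span, not at the start of its canonical transcript. Capitals mark matches on either strand to 1 of 4 motifs, TATAA, the AP-1 motif TGANTCA, the GC box GGGCGG and CCAAT.
KRT4: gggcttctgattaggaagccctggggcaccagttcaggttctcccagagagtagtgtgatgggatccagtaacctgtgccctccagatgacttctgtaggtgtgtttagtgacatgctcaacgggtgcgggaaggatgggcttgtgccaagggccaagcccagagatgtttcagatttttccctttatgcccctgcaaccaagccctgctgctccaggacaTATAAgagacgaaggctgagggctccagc
KRT8: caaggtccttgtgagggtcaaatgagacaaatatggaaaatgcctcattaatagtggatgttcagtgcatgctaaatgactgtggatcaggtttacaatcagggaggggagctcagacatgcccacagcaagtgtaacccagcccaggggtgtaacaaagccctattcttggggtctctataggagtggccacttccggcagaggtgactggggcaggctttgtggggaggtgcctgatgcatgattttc
The KRT4 window holds 1 TATAA, close to the start, and no match to the other motifs. The KRT8 window holds no match to any of the 4. Over all 35116 windows of this length, 18.9% hold TATAA, 6.57% TGANTCA, 42.6% GGGCGG and 32.0% CCAAT. KRT18, KRT7, KRT19, KRT13 and KRT80 have no entry in the table.

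Per length, the mucosal pair was the most abundant of the 7 genes and the KRT7 and KRT19 pair the least. In WT unwounded cells, the level was 321 ± 52.2 RPKM for KRT13, 160 ± 35.7 for KRT4, 40.4 ± 0.818 for KRT18, 39.4 ± 1.03 for KRT8, 24.5 ± 0.989 for KRT80, 1.21 ± 0.121 for KRT7 and 0.192 ± 0.0788 for KRT19 (SD, n = 5). RPKM here divides by the bases covered by any exon of the gene. KRT18 and KRT8, neighbors in this order, had overlapping SDs, and each other step down was larger than the SDs. Within each of these samples KRT8 lay slightly below KRT18, at a ratio of 0.959 to 0.993. Among the 67 keratin genes, KRT13 ranked 6 in WT unwounded cells, behind KRT5, KRT15, KRT17, KRT14 and KRT6A, the keratins of basal and activated keratinocytes, while KRT18, KRT8 and KRT80 ranked 10, 11 and 12. KRT7 ranked 18 and KRT19 26. In GCN2KO HDW cells, KRT80 at 140 ± 16.4 RPKM stood above KRT18 at 118 ± 14.1 and KRT8 at 108 ± 17.1 (SD, n = 5), although their SDs overlapped. The order of KRT4, KRT8, KRT18 and KRT80 depends on the length used, since the exons of KRT8 cover 6881 bases but its longest transcript has 2862. With the longest transcript, KRT8 came before KRT18 in all 4 groups and before KRT4 in both GCN2KO groups (260 against 256 RPKM after HDW). Together the 7 genes took 6.79% ± 0.860 of all keratin counts in unwounded and 8.09% ± 1.41 in wounded WT cells, and 8.22% ± 0.464 in unwounded and 8.22% ± 0.708 in wounded GCN2KO cells (SD, n = 5).

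**Figure D1:**
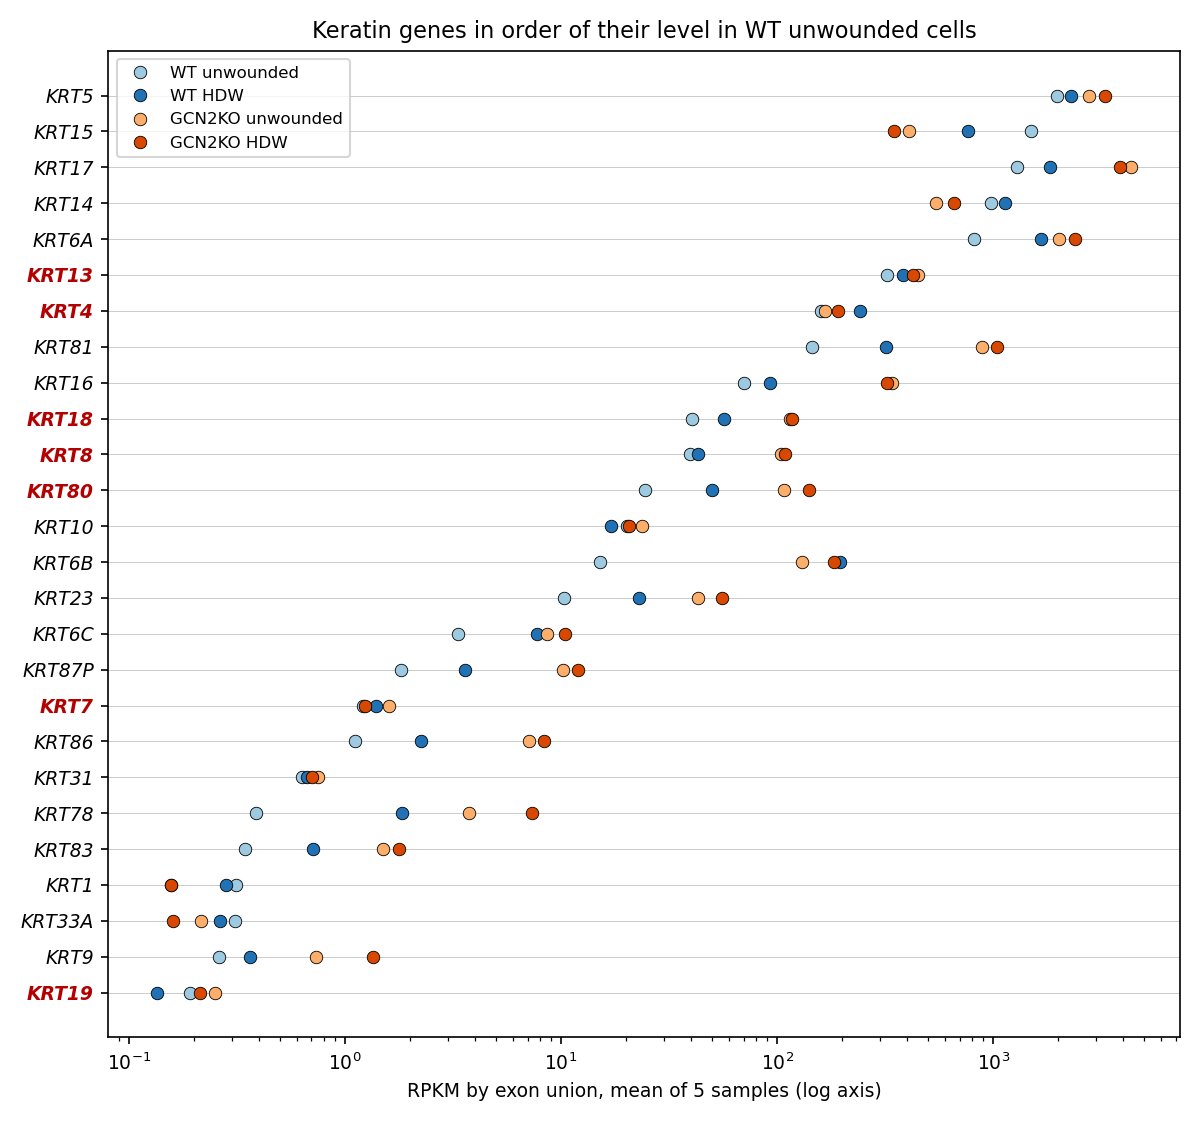
Mean level of the 26 most abundant keratin genes in WT unwounded cells, in RPKM by exon union (horizontal log axis), with 1 point for each of the 4 groups (mean of 5 samples) and the 7 described genes in bold red. KRT13 and KRT4 sit near the epidermal keratins, KRT18, KRT8 and KRT80 shift to the right in both GCN2KO groups, and KRT7 and KRT19 stay below 2 RPKM.

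To ask which of the 7 genes depended on genotype and on wounding, the counts of the 10 samples in each pair of groups were tested by quasi-likelihood in edgeR. DE genes are those with an adjusted p of 0.05 or less (Benjamini-Hochberg, over all genes tested) that also changed by 1 or more on the log2 scale. KRT8, KRT18 and KRT80 were DE genes, all higher, in GCN2KO against WT cells, both unwounded, where 16.4% of the genes tested were DE genes in either direction, and after HDW, where 14.9% were. At the adjusted p alone, 5 of the 7 were higher in unwounded GCN2KO cells (33.4% of all genes were higher and 33.1% lower) and 4 of the 7 were higher after HDW (35.9% higher and 35.8% lower), with none of the 7 lower in either. HDW made 1 of the 7, KRT80, a DE gene in WT cells (4.17% of all genes) and moved 4 of the 7 up at the adjusted p alone (26.1% of all genes higher and 25.2% lower). In GCN2KO cells, HDW made none of the 7 a DE gene (0.671% of all genes), and at the adjusted p alone 1 rose and 1 fell, as at an unadjusted p under 0.05 (11.9% of all genes higher and 10.8% lower). The interaction, which is the HDW response in GCN2KO minus that in WT cells, had none of the 7 past both thresholds (3.31% of all genes), and at the adjusted p alone it was negative for 3 of the 7 and positive for none (at an unadjusted p under 0.05 also 3 and 0, with 12.5% of all genes lower and 11.2% higher). DESeq2 gave as many DE genes among the 7, 3, 3, 1 and 0 in the 4 comparisons and 0 for the interaction. The median log2 fold change of the 7 genes was 0.48 in unwounded and 0.67 in wounded GCN2KO against WT cells, beside medians of 0.0042 and 0.0020 over all genes. The higher median after HDW is the value of KRT19, a scarce gene that DESeq2 did not call there (adjusted p = 0.0767). Each of the other genes had a lower log2 fold change after HDW than unwounded.

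**Figure D2:**
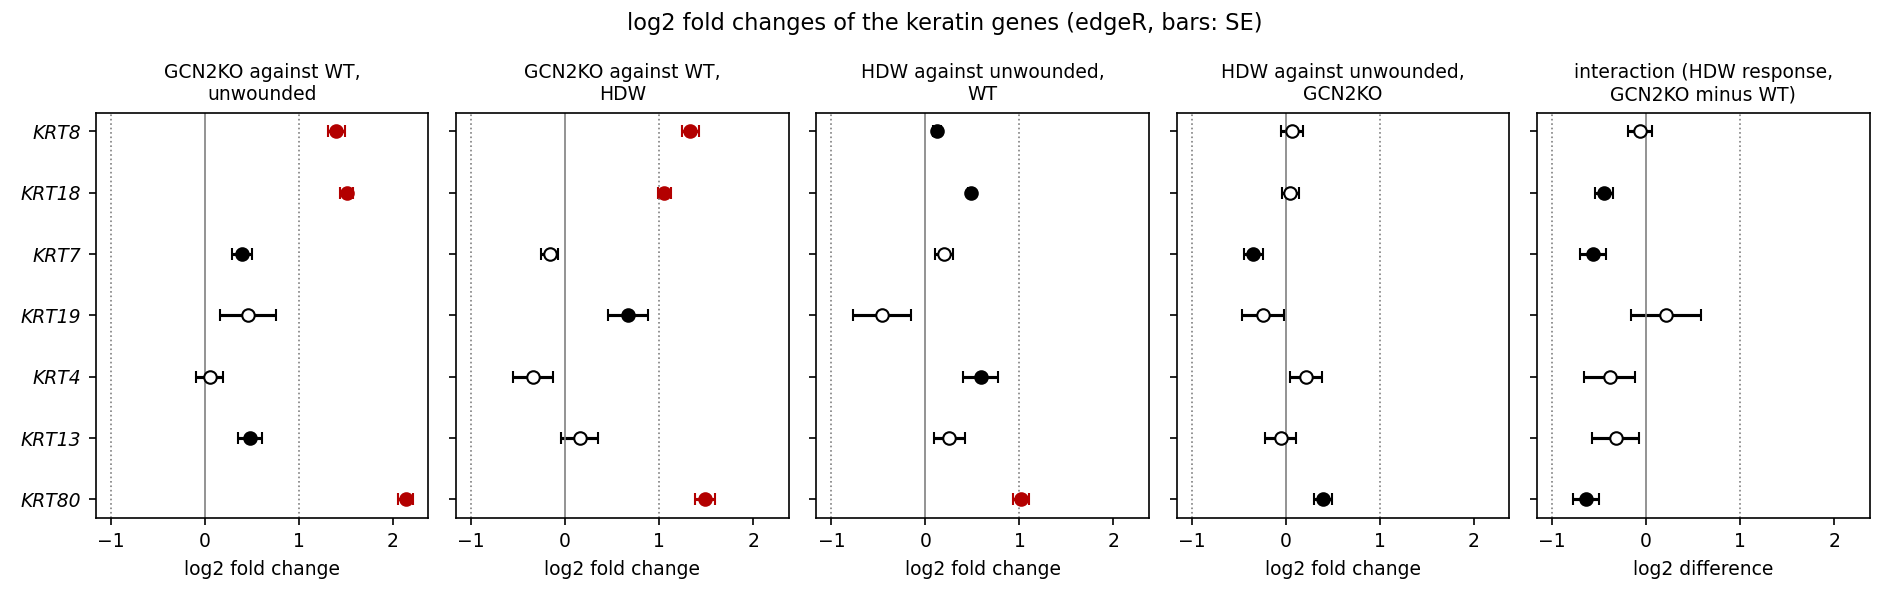
log2 fold change (horizontal axis, edgeR) with its SE for each of the 7 genes in the 4 comparisons, and the log2 difference of the HDW response between genotypes at the right. Red points are DE genes, filled points have an adjusted p of at most 0.05 and open points do not, and dotted lines mark a log2 fold change of 1 in size. KRT8, KRT18 and KRT80 stand past 1 in both genotype comparisons, and KRT80 reaches 1.02 for HDW in WT cells.

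KRT8, the type II chain of simple epithelia, was higher by a log2 fold change of 1.40 (adjusted p = 9.71e-10 in edgeR, SE 0.087) in GCN2KO than in WT unwounded cells, which is 2.64-fold. The WT unwounded samples held 7681, 7859, 8108, 7566 and 7782 normalized read counts in replicates 1 to 5, and the GCN2KO unwounded samples 16466, 20828, 23827, 22263 and 19338. The groups did not overlap, and the GCN2KO samples were spread more widely, with a coefficient of variation of 13.7% against 2.62%. After HDW, the WT samples held 8108, 9083, 8565, 7967 and 8788 normalized read counts and the GCN2KO samples 25041, 22216, 22603, 21251 and 15904. Again there was no overlap, although the lowest GCN2KO sample, replicate 5, stood apart from its group. The log2 fold change there was 1.33 (adjusted p = 2.31e-08 in edgeR, SE 0.094), and 1.42 without that sample. Wounding itself moved KRT8 little. In WT cells the log2 fold change of HDW was 0.12 (adjusted p = 0.0171 in edgeR, SE 0.039) with overlapping groups, and this call was lost with library size alone (adjusted p = 0.0903) and in one fit of all 20 samples (adjusted p = 0.313). In GCN2KO cells it was 0.07 (adjusted p = 0.696 in edgeR, SE 0.12), and the difference between these responses was -0.07 (adjusted p = 0.763 in edgeR, SE 0.13).

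KRT18, the type I partner of KRT8, was higher in unwounded GCN2KO cells by a log2 fold change of 1.51 (adjusted p = 5.5e-11 in edgeR, SE 0.071), or 2.84-fold. Its normalized read counts were 3567, 3558, 3642, 3455 and 3618 in the WT unwounded samples and 9067, 10462, 10848, 11087 and 9139 in the GCN2KO unwounded samples. The lowest GCN2KO sample was far above the highest WT sample. KRT18 also rose after wounding in WT cells, where the HDW samples held 4713, 5157, 5092, 4980.2 and 5016 normalized read counts, all above the unwounded ones. That change was a log2 fold change of 0.48 (adjusted p = 1.56e-08 in edgeR, SE 0.033), or 1.40-fold. The GCN2KO HDW samples, at 11872, 10958, 10683, 9760.2 and 8612, overlapped their unwounded counterparts, with a log2 fold change of 0.05 (adjusted p = 0.740 in edgeR, SE 0.090). The HDW response of KRT18 differed between the genotypes by -0.45 (adjusted p = 0.00199 in edgeR, SE 0.10), and the excess in GCN2KO over WT cells was 1.06 (adjusted p = 1.44e-08 in edgeR, SE 0.071) after HDW.

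The ratio of the partners follows from these values. Per exonic base, KRT8 stood to KRT18 as 0.975 ± 0.0149 in WT unwounded cells, with samples from 0.959 to 0.993, and as 0.760 ± 0.0293 in WT HDW cells, with samples from 0.714 to 0.786 (SD, n = 5). These ranges were apart, with relatively more of the type I chain after wounding. In GCN2KO cells the ratio was 0.903 ± 0.0641 unwounded and 0.917 ± 0.0572 after HDW (SD, n = 5), from 0.810 to 0.980 and from 0.824 to 0.971, with full overlap. By longest transcript the ratio was larger throughout, 1.60 and 1.24 in unwounded and wounded WT cells and 1.48 and 1.499 in GCN2KO cells, with the WT groups again apart.

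KRT80 had the largest genotype difference of the 7 genes in both comparisons. In unwounded cells the WT samples held 3094, 2987, 2951, 3269 and 3053 normalized read counts and the GCN2KO samples 11578, 14538, 13543, 15356 and 12334. There was no overlap, and the log2 fold change was 2.14 (adjusted p = 7.26e-12 in edgeR, SE 0.081), or 4.40-fold. KRT80 was also the member that responded most to wounding in WT cells, to 5484, 8009, 6379, 5689 and 5649 normalized read counts, each above every unwounded sample. The log2 fold change of HDW in WT cells was 1.02 (adjusted p = 1.22e-07 in edgeR, SE 0.085). Replicate 2 was the highest of the wounded samples, and without it the value was 0.91, under the fold threshold but past the adjusted p. Scaling by library size alone gave 0.98. In GCN2KO cells the HDW samples reached 19731, 18239, 17630, 18031 and 14168 normalized read counts, of which only replicate 5 lay within the unwounded range. The rise there was smaller on the log2 scale, 0.39 (adjusted p = 0.0125 in edgeR, SE 0.097), and the difference of the responses was -0.64 (adjusted p = 0.00130 in edgeR, SE 0.14). On the scale of normalized read counts the group mean went from 3071 to 6242 in WT and from 13470 to 17560 in GCN2KO cells. Across the 20 samples KRT80 spanned a 6.69-fold range, against 3.31-fold for KRT8 and 3.44-fold for KRT18.

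**Figure D3:**
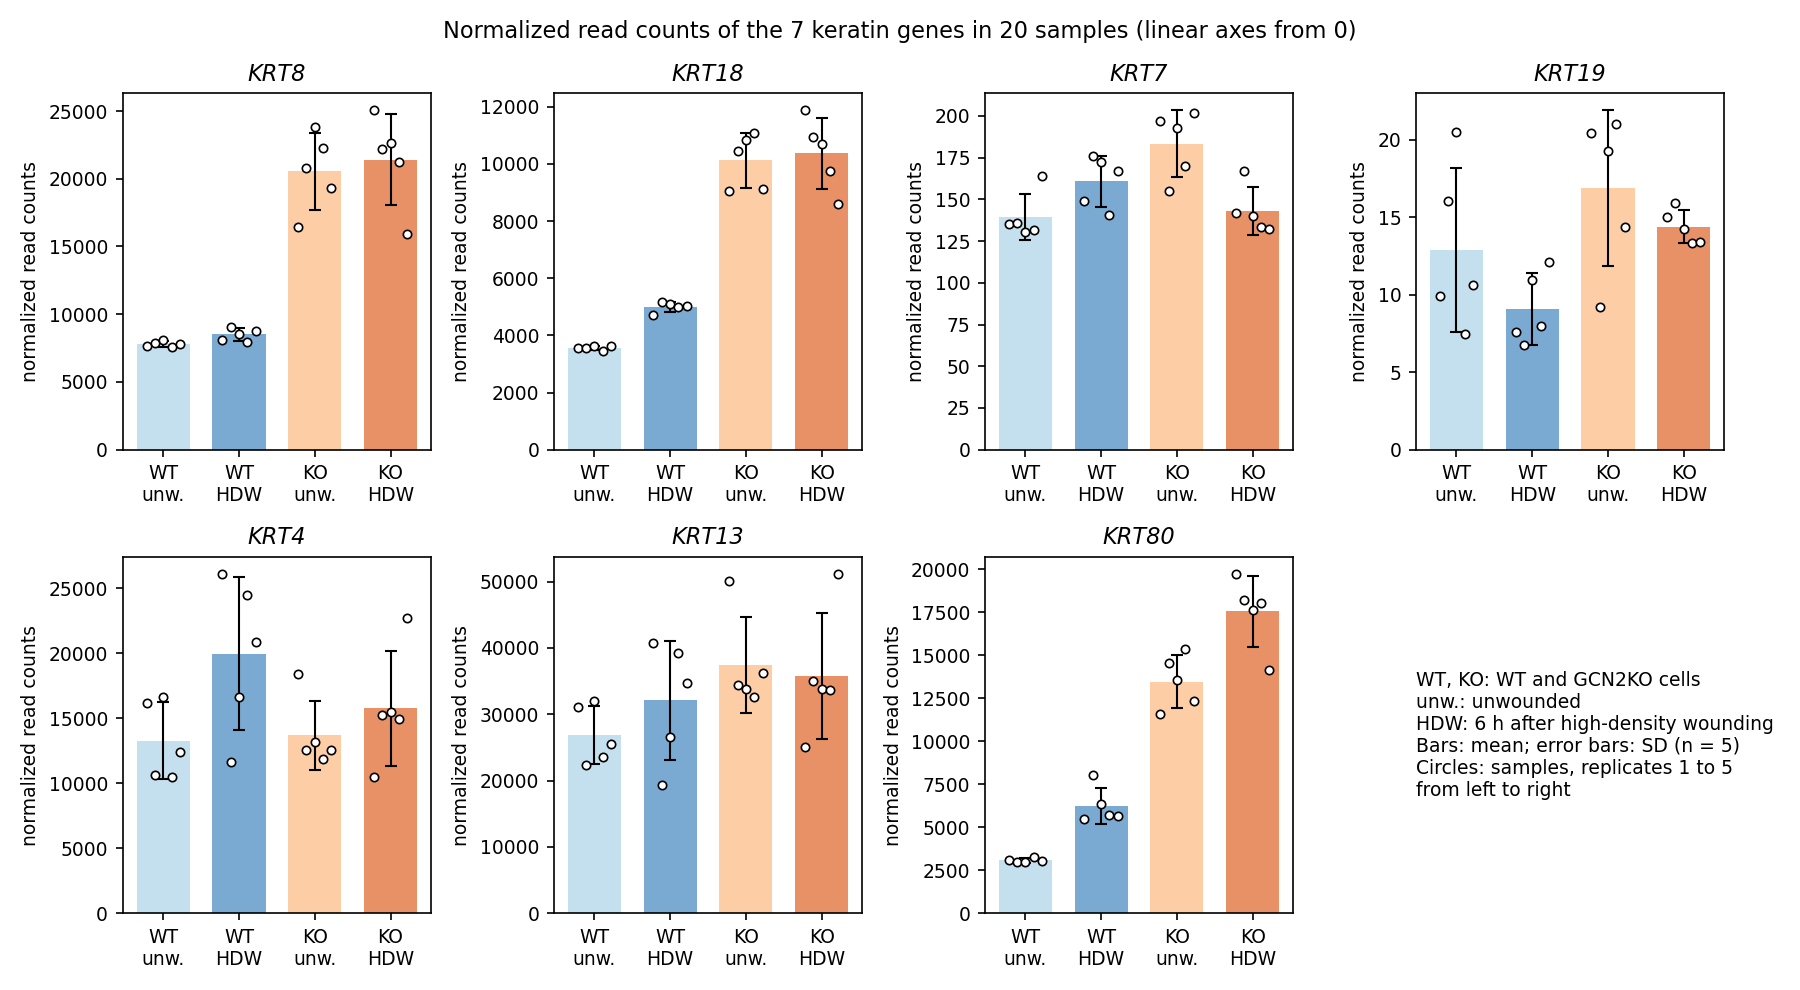
Normalized read counts of each of the 7 genes in the 20 samples (vertical linear axes from 0, 1 panel a gene), with bars for the mean, error bars for the SD (n = 5) and circles for the samples in order of replicate number. KRT8, KRT18 and KRT80 form a low WT and a high GCN2KO level without overlap, KRT4 and KRT13 are spread widely within every group, and KRT19 never exceeds 21.01.

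KRT7, the other type II keratin of simple epithelia, was scarce, with 68 to 239 counts per library, and its changes were small. Unwounded WT samples held 135, 136, 130.4, 132 and 164 normalized read counts, and unwounded GCN2KO samples 197, 155, 193, 169.8 and 202. Only WT replicate 5 reached the GCN2KO range, and the log2 fold change was 0.40 (adjusted p = 0.00363 in edgeR, SE 0.11). After HDW the direction was not the same. WT HDW samples held 149, 176, 172, 141 and 167 and GCN2KO HDW samples 142, 167, 140.1, 134 and 132, with a log2 fold change of -0.17 (adjusted p = 0.120 in edgeR, SE 0.092) that passed at -0.23 (adjusted p = 0.0403) without GCN2KO HDW replicate 2. In GCN2KO cells HDW lowered KRT7 by -0.35 on the log2 scale (adjusted p = 0.0272 in edgeR, SE 0.10). That call was lost in 6 of the 10 fits without 1 sample (adjusted p from 0.0113 to 0.0696) and under the replicate block (adjusted p = 0.0811). In WT cells the value was 0.20 (adjusted p = 0.0905 in edgeR, SE 0.094). The difference between the responses, -0.56 (adjusted p = 0.00473 in edgeR, SE 0.14), kept an adjusted p of at most 0.0112 in each of the 20 fits without 1 sample.

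KRT19, a small type I keratin of simple and glandular epithelia, had only 5 to 25 counts per library, near the minimum of the filter. It held 7.43 to 20.5 normalized read counts in unwounded and 6.73 to 12.1 in wounded WT samples, and 9.20 to 21.0 in unwounded and 13.4 to 15.9 in wounded GCN2KO samples. The last of these ranges lay just above that of WT HDW, with a log2 fold change of 0.67 (adjusted p = 0.0132 in edgeR, SE 0.21). DESeq2 (adjusted p = 0.0767) and edgeR with no filter (adjusted p = 0.0622) did not call it. The remaining comparisons of KRT19 did not pass, with log2 fold changes of 0.46 (SE 0.30) in GCN2KO against WT unwounded cells, -0.46 (SE 0.31) for HDW in WT and -0.24 (SE 0.22) for HDW in GCN2KO cells (edgeR adjusted p = 0.187, 0.223 and 0.442). KRT7 per exonic base was 5.80 to 10.9 times KRT19 by group means, with samples from 3.71 to 15.3.

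KRT4 and KRT13, the mucosal pair, were abundant and varied more within groups than the simple pair. KRT4 held 16147, 10599, 16628, 10516 and 12441 normalized read counts in WT unwounded samples and 18388, 12571, 13146, 11877 and 12535 in GCN2KO unwounded samples. The groups overlapped, with a log2 fold change of 0.05 (adjusted p = 0.769 in edgeR, SE 0.14). In WT HDW samples KRT4 held 26109, 11669, 16655, 24511 and 20841 normalized read counts, from within the unwounded range to well above it. Its log2 fold change of HDW in WT cells was 0.59 (adjusted p = 0.0156 in edgeR, SE 0.19), and the adjusted p ran from 0.000319 to 0.0443 with each sample left out. The GCN2KO HDW samples held 10465, 15246, 15450, 14919 and 22724, and the fold change of HDW there was 0.21 (adjusted p = 0.368 in edgeR, SE 0.17). Between the genotypes after HDW, KRT4 differed by -0.34 (adjusted p = 0.158 in edgeR, SE 0.21). This value passed at -0.36 (adjusted p = 0.0397) with no filter on low counts, and it was -0.51 (adjusted p = 0.0237) without GCN2KO HDW replicate 5 and -0.49 (adjusted p = 0.0245) without WT HDW replicate 2. The difference between the KRT4 responses was -0.39 (adjusted p = 0.326 in edgeR, SE 0.27).

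KRT13 rose in unwounded GCN2KO against WT cells by a log2 fold change of 0.48 (adjusted p = 0.00320 in edgeR, SE 0.13). Its normalized read counts were 31035, 22353, 31928, 23485 and 25561 in the WT samples and 50119, 34428, 33788, 32600 and 36231 in the GCN2KO samples. The groups were apart by a narrow margin, and without GCN2KO replicate 1, the highest sample, the value was 0.35 and still past the adjusted p. After HDW, WT samples held 40719, 19287, 26594, 39169 and 34664 and GCN2KO samples 25019, 35074, 33790, 33636 and 51165, with wide overlap and a log2 fold change of 0.16 (adjusted p = 0.493 in edgeR, SE 0.20). Without GCN2KO HDW replicate 5 it was -0.0091. HDW moved KRT13 by 0.25 (adjusted p = 0.218 in edgeR, SE 0.16) in WT cells, by 0.39 (adjusted p = 0.00965) without WT HDW replicate 2 and by 0.27 (adjusted p = 0.0135) with no filter, and by -0.06 (adjusted p = 0.833 in edgeR, SE 0.16) in GCN2KO cells. The difference between the KRT13 responses was -0.32 (adjusted p = 0.380 in edgeR, SE 0.25).

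Although each gene of the mucosal pair varied widely, their ratio was steady within groups. KRT4 stood to KRT13, per exonic base, as 0.496 ± 0.0317 in unwounded and 0.628 ± 0.0168 in wounded WT cells, and as 0.371 ± 0.0155 in unwounded and 0.445 ± 0.0146 in wounded GCN2KO cells (SD, n = 5). The samples ran from 0.453 to 0.527, from 0.609 to 0.649, from 0.350 to 0.394 and from 0.424 to 0.463 in the same order. Only the ranges of WT unwounded and GCN2KO HDW cells touched. Wounding went with a higher ratio in both genotypes, and GCN2KO cells had a lower ratio in both conditions.

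Within groups, KRT4 and KRT13 mostly moved against KRT8, KRT18 and KRT80 from sample to sample. Taking log2 CPM of each sample minus its group mean, KRT4 and KRT13 correlated with Pearson's r = 0.988 (Spearman's rho 0.958) over the 20 samples, and KRT8 and KRT18 with r = 0.916 (rho 0.919). KRT13 against KRT80 gave r = -0.884 (rho -0.802), and r = -0.789 without the 2 samples farthest from the group mean in KRT13. KRT13 against KRT8 gave r = -0.713 (rho -0.644). These are descriptions over libraries scaled by the same factors, with no test. By group, r for KRT13 against KRT80 was -0.343 and -0.974 in unwounded and wounded WT cells and -0.825 and -0.964 in unwounded and wounded GCN2KO cells. For KRT13 against KRT8 it was 0.431, -0.833, -0.911 and -0.962 in the same order, so that in WT unwounded cells, where KRT8 varied least, the sign was positive. In that group KRT80 also ran against KRT8 (r = -0.902) and KRT18 (-0.874), while KRT18 ran with KRT4 (0.653) and KRT13 (0.581). In the other groups KRT80 ran with KRT8 (0.745 to 0.981) and KRT18 (0.726 to 0.920). Each of these rests on 5 samples. In GCN2KO HDW replicate 5, KRT4 and KRT13 lay 0.57 and 0.56 above and KRT8, KRT18 and KRT80 0.41, 0.26 and 0.30 below their group means on the log2 scale. GCN2KO unwounded replicate 1 showed the same arrangement, and WT HDW replicate 2 the reverse, with KRT4 at -0.72, KRT13 at -0.68 and KRT80 at 0.37. KRT7 and KRT19 were less closely tied to either set over the 20 samples, with r between -0.272 and 0.230 for KRT7 against each other gene and between -0.235 and 0.230 for KRT19. Their values differed by group. KRT7 against KRT8 gave 0.937 in WT HDW and -0.350 in GCN2KO unwounded cells, and KRT7 against KRT4 gave -0.842 and 0.444. Without GCN2KO unwounded replicate 1 and GCN2KO HDW replicate 5 the DE calls of KRT8, KRT18 and KRT80 stood, with log2 fold changes of 1.47, 1.54 and 2.18 unwounded and 1.42, 1.12 and 1.56 after HDW. This left-out pair was chosen after the values were seen.

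**Figure D4:**
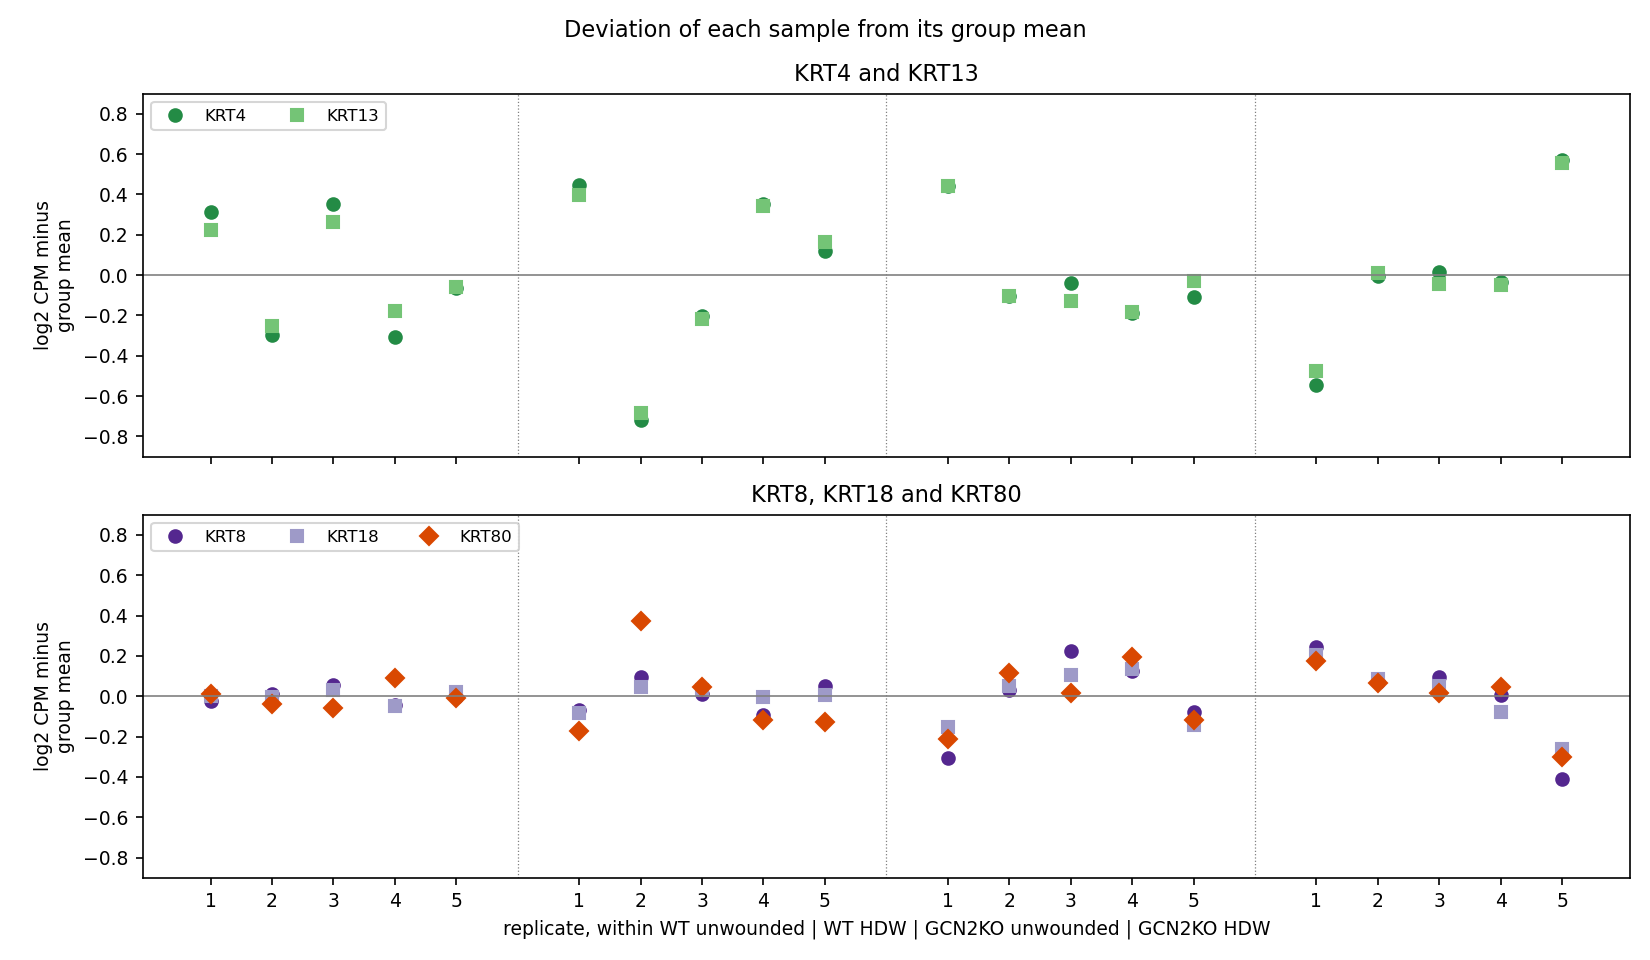
Deviation of each of the 20 samples from its group mean (vertical axis, log2 CPM) for KRT4 and KRT13 (upper panel) and for KRT8, KRT18 and KRT80 (lower panel), with replicates 1 to 5 of the 4 groups from left to right. KRT4 and KRT13 points nearly coincide (r = 0.988), and GCN2KO unwounded replicate 1 and GCN2KO HDW replicate 5 are high in the upper and low in the lower panel.

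Other keratins differed too. Of 60 other genes with a keratin symbol, 22 were tested in unwounded cells. Of these, 14, with the pseudogene KRT87P among them, were DE genes higher and 2 lower in GCN2KO cells. Of all genes 16.4% were DE genes in either direction. The median over those tested was 1.64 on the log2 scale. Some passed the filter through the GCN2KO group, as KRT24 (6.31 against 154 normalized read counts) and KRT34 (4.94 against 40.5). Such genes could hardly come out lower, which raises the count and the median. The higher genes included KRT16 (2.27, adjusted p = 5.95e-12 in edgeR, SE 0.085), KRT17 (1.75, adjusted p = 2.69e-11 in edgeR, SE 0.076) and KRT6A (1.31, adjusted p = 4.1e-10 in edgeR, SE 0.075), the keratins of activated epidermis. The 2 lower genes were KRT15 (-1.88, adjusted p = 2.45e-09 in edgeR, SE 0.13), a basal keratin, and KRT1 (-1.06, adjusted p = 0.00179 in edgeR, SE 0.26), which was scarce at 22.4 against 11.2 normalized read counts. After HDW 11 of 26 tested were DE genes higher and 1 lower, KRT15, beside 14.9% of all genes in either direction. KRT85 (6.05 against 19.0 normalized read counts) passed the filter there through the GCN2KO group. HDW in WT cells made 9 of 22 other keratins DE genes, all higher, beside 4.17% of all genes in either direction. They were led by KRT6B (3.69, adjusted p = 2.39e-13 in edgeR, SE 0.079). KRT24 (6.31 against 41.0 normalized read counts) and KRT34 (4.94 against 40.1) passed the filter through the HDW group. These could hardly come out lower, which raises the count of higher genes. HDW in GCN2KO cells raised 9 of 24 at the adjusted p alone, each by less than the fold threshold, beside 11.9% of all genes. The interaction was negative at the adjusted p alone for 14 of 28 and positive for 1, beside 12.5% and 11.2% of all genes. KRT6B (-3.19, adjusted p = 9.76e-12 in edgeR, SE 0.17) came first. KRT6A, KRT6B and KRT6C, and likewise KRT81 and KRT86, are close copies. Only reads that map to 1 place were counted, so reads that fit several copies could be lost.

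Other genes of mucosal squamous differentiation moved in both directions, most of them up in GCN2KO cells. Of 16 tested in unwounded cells, 12 were higher and 3 lower in GCN2KO cells at the adjusted p alone (median 1.41 on the log2 scale), beside 33.4% and 33.1% of all genes. Fewer of the list, 14, passed the filter among the WT samples alone. Some of the 16 may thus have entered through the GCN2KO group, so that they could hardly come out lower. That would raise the count of higher genes and the median. SPRR3, a small proline-rich precursor of the cornified envelope, rose by 4.41 (adjusted p = 3.68e-14 in edgeR, SE 0.096), RHCG, an ammonium channel, by 1.62 (adjusted p = 3.6e-10 in edgeR, SE 0.091) and ANXA1, an annexin, by 1.57 (adjusted p = 3.33e-09 in edgeR, SE 0.11). CLCA4, of the family of chloride channel regulators, went the other way, from 3930.0 to 167 normalized read counts (-4.55, adjusted p = 8.77e-11 in edgeR, SE 0.22), and SPINK5, a protease inhibitor, had -0.77 (adjusted p = 3.82e-05 in edgeR, SE 0.12). After HDW 10 of 16 were higher and 4 lower, with a median of 0.79, beside 35.9% and 35.8% of all genes. CRNN, which encodes cornulin, had 0.337 normalized read counts in WT and 38.0 in GCN2KO cells, so it passed the filter through the GCN2KO group. Wounding of WT cells raised 9 of 14 and lowered 1, TGM1, beside 26.1% and 25.2% of all genes. ANXA1 (1.10, adjusted p = 3.37e-08 in edgeR, SE 0.081) and EMP1, a membrane protein of the PMP22 family (1.39, adjusted p = 6.82e-08 in edgeR, SE 0.11), were in front. In GCN2KO cells wounding raised 2 and lowered 1 of 19, beside 11.9% and 10.8% of all genes. The interaction was negative for 6 of 19 and positive for none, beside 12.5% and 11.2% of all genes. Among the 6 were IL1RN (-0.85, adjusted p = 2.6e-05 in edgeR, SE 0.13), ANXA1 (-0.79, adjusted p = 0.000631 in edgeR, SE 0.15) and SPRR3 (-1.03, adjusted p = 0.00108 in edgeR, SE 0.22).

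Of 19 surface and junction genes of simple epithelia tested, 12 were higher and 5 lower in GCN2KO unwounded cells, beside 33.4% and 33.1% of all genes. After HDW 11 were higher and 6 lower, beside 35.9% and 35.8%. Their medians were 0.41 and 0.32, and the counts of lower genes were not above the share over all genes. EPCAM, an adhesion molecule of simple epithelia, rose from 207 to 899 normalized read counts (2.11, adjusted p = 6.61e-11 in edgeR, SE 0.10), and OCLN, a tight junction protein, by 1.47 (adjusted p = 4.26e-10 in edgeR, SE 0.084). MUC1, the mucin of glandular surfaces, fell by 2.10 (adjusted p = 3.02e-09 in edgeR, SE 0.14) on the log2 scale. HDW in WT cells moved 8 of 19 up, CLDN4 by 0.92 (adjusted p = 8.99e-07 in edgeR, SE 0.092), and 6 down, with a median of 0.05. The shares over all genes were 26.1% and 25.2%. In GCN2KO cells HDW moved 4 up and 3 down, beside 11.9% and 10.8% of all genes. The interaction passed for 2 of 19 upward and 6 downward, beside 11.2% and 12.5% of all genes, so the upward count was near that share.

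Among 21 transcription and splicing regulators of epithelia, 10 were higher and 7 lower in unwounded GCN2KO cells (median 0.09), where 33.4% of all genes were higher and 33.1% lower, and 13 higher and 4 lower after HDW (median 0.32), against 35.9% and 35.8%. The lower count of 7 is close to the share over all genes. FOXA2, a forkhead factor of endodermal epithelia, rose from 29.5 to 351 normalized read counts (3.62, adjusted p = 4.65e-10 in edgeR, SE 0.21), while TP63, the master factor of stratified epithelia, fell by 0.52 (adjusted p = 2.37e-06 in edgeR, SE 0.064) on the log2 scale. FOXA2 also rose after HDW in WT cells, by 2.08 (adjusted p = 1.1e-05 in edgeR, SE 0.27), and its response differed between genotypes by -1.84 (adjusted p = 0.000121 in edgeR, SE 0.31). FOXA1 went the other way in both. It had -0.88 for HDW in WT cells (adjusted p = 4.9e-06 in edgeR, SE 0.11). Its response differed between genotypes by 1.00 (adjusted p = 1.13e-05 in edgeR, SE 0.14). HDW moved 10 up and 6 down in WT cells (26.1% and 25.2% of all genes). In GCN2KO cells it moved 9 up and 1 down (11.9% and 10.8% of all genes). The interaction passed for 7 upward and 4 downward (11.2% and 12.5% of all genes). Of 18 linkers and chaperones of keratin filaments, 6 were higher and 7 lower in unwounded GCN2KO cells (median -0.08), which is near the 33.4% and 33.1% of all genes. There were 10 up and 5 down both in wounded GCN2KO against WT cells (35.9% and 35.8% of all genes) and for HDW in WT cells (26.1% and 25.2%). EPPK1, which encodes the keratin linker epiplakin, rose by 1.47 (adjusted p = 4.07e-06 in edgeR, SE 0.19) unwounded and 1.62 (adjusted p = 4.78e-09 in edgeR, SE 0.095) after HDW. In GCN2KO cells HDW moved 7 of these 18 up and 2 down (11.9% and 10.8% of all genes). The interaction passed for 3 upward and 2 downward (11.2% and 12.5% of all genes).

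Of the other intermediate filament genes, 6 of 8 tested were higher and 1 lower in unwounded GCN2KO cells, beside 33.4% and 33.1% of all genes, and 6 of 9 higher and 3 lower after HDW, beside 35.9% and 35.8%. VIM, the vimentin of mesenchymal cells, rose from 285 to 921 normalized read counts (1.71, adjusted p = 9.3e-10 in edgeR, SE 0.11). LMNB1 encodes a nuclear lamin. HDW raised it by 2.05 (adjusted p = 3.81e-07 in edgeR, SE 0.19) in WT cells, but in wounded cells it was lower in GCN2KO than in WT by -1.64 (adjusted p = 2.29e-07 in edgeR, SE 0.15). HDW raised 3 of 8 tested in WT cells (26.1% of all genes) and 3 of 9 in GCN2KO cells (11.9% of all genes) at the adjusted p alone. Among 10, the interaction passed only for LMNB1 (-1.73, adjusted p = 1.53e-05 in edgeR, SE 0.24), beside 12.5% of all genes lower and 11.2% higher.

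The non-keratin genes most like each of the 7 were found by Pearson's r of log2 CPM over the 20 samples, among 16501 genes, as a description. KRT8 was matched by PPP2CA, a phosphatase catalytic subunit (r = 0.997), LRIF1 (0.995) and LSM14A, an RNA-binding protein (0.995). KRT18 was matched by HM13, the signal peptide peptidase (0.996), PTTG1IP (0.994) and SLC35A2, a UDP-galactose transporter (0.993). KRT80 was matched by FGF2, a fibroblast growth factor (0.994), TRNP1 (0.990) and LINC02693 (0.989). These values share the 4 group means, and within groups r was 0.931 for PPP2CA with KRT8, 0.876 for HM13 with KRT18 and 0.835 for FGF2 with KRT80. FGF2 had 87.0, 207, 408 and 542 normalized read counts as means of unwounded and wounded WT and then unwounded and wounded GCN2KO samples, the same order as KRT80. KRT4 was matched less closely, by DHRS9, a retinol dehydrogenase (0.881, and 0.943 within groups), GABRP (0.833) and FGFBP1 (0.824), and KRT13 by CSNK1G3 (0.914), CD86 (0.876, and 0.959 within groups) and ADGRF1 (0.860). For KRT7 the values were 0.832 for HAX1, 0.829 for RHOC and 0.828 for PGAM1, and for KRT19 0.842 for FTH1P5, 0.792 for OGDHL and 0.781 for BLTP3B. Among the 7 genes themselves r was 0.980 for KRT18 with KRT80, 0.977 for KRT8 with KRT18, 0.937 for KRT8 with KRT80 and 0.725 for KRT4 with KRT13.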

How the data were processed

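Total RNA of 20 cultures was sequenced as paired reads. The authors used Trimmomatic for trimming, STAR for alignment to GRCh38 and featureCounts for the exonic reads of each Ensembl gene that map to 1 place. What they deposited are raw counts, neither normalized nor filtered. The annotation release, strand setting and treatment of overlapping genes are not given in the sources used here. Of 57500 genes, 56410 matched GENCODE release 44 for symbols, positions and lengths, and 1090 did not. Depth was 14083504 to 34611570 counts per library.

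The comparisons used edgeR 4.0.16 under R 4.3.3 (TMM, filterByExpr with a minimum count of 10, glmQLFit, glmQLFTest), on the 10 samples of 2 groups, and on all 20 for the interaction. Adjusted p-values are Benjamini-Hochberg values over all genes tested. The SE is the log2 fold change divided by the square root of F. log2 CPM used a prior count of 2. The fits were tested on simulated data. The members, the gene lists and the comparisons were chosen with earlier results of these data known. Named genes are the 7 keratins, EIF2AK4, other keratins that are DE genes, at most 3 higher and 3 lower genes a list with the smallest adjusted p, and the 3 non-keratin genes most like each member. Not all of these are described, and 1 is not reported here. Promoters are from RefSeq. The same comparisons were rerun in DESeq2 1.42.0, with its size factors or bare library sizes in edgeR, without a filter or with a floor of 50 on the mean count, with 20 samples in 1 fit, with the replicate block, at the adjusted p alone and with each sample left out, and for levels DESeq2 size factors and the longest transcript. Same-numbered samples are not stated to share a culture day, so the tests are unpaired.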

Additional observations from a re-analysis of the deposited data

Results flagged for a closer look

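With 28 sets of 5 samples examined (7 genes in 4 groups), 4 held a sample whose gap to its nearest neighbor passed the critical share of the range, 0.71, and chance passes it in about 1 of 20 sets. KRT7 in WT unwounded replicate 5 had 163.9 normalized read counts, above the other 4 samples, with a gap of 0.845 of the range. KRT7 in GCN2KO HDW replicate 2 had 167.3 (0.726 of the range). KRT4 and KRT13 in GCN2KO unwounded replicate 1 had 18388 and 50119, above the rest of their group (0.805 and 0.793 of the range), and these 2 are 1 pattern, since the genes correlated by 0.972 or more in every group. In the same sample KRT8 and KRT80 were the lowest of their group.

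HDW responses were not the same in both genotypes, by edgeR's test of the interaction over 20 samples, for KRT18 (-0.45), KRT7 (-0.56) and KRT80 (-0.64), all as GCN2KO minus WT on the log2 scale. On that scale the WT response was the larger rise for KRT18 and KRT80. In normalized read counts the mean of KRT80 went from 3071 to 6242 in WT and from 13470 to 17560 in GCN2KO cells. For KRT7 the values were 0.20 in WT and -0.35 in GCN2KO cells.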

How the results depend on the processing

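KRT8, KRT18 and KRT80 were DE genes higher in GCN2KO cells, unwounded and after HDW, under every alternative run, and with each sample left out (3 of the 7 genes in each fit). At the adjusted p alone the count of higher genes was 5 unwounded. For HDW in WT cells the count of 1 higher gene was 4 at the adjusted p alone and 0 with library size alone, where KRT80 was at 0.98, and it ran from 0 to 1 with each sample left out, 0 without WT HDW replicate 2. For HDW in GCN2KO cells, at the adjusted p alone, 1 gene was higher and 1 lower, and for the interaction 3 were lower.

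Samples of the same number deviated from their groups with a mean correlation of -0.0149 (-0.378 to 0.170 over single pairs). These values show no common pairing, but they cannot exclude that same-numbered cultures were handled together. With the replicate block the count of DE genes among the 7 did not move in any comparison, at 3, 3, 1, 0 and 0, and KRT7 for HDW in GCN2KO cells, at -0.35, missed the threshold (adjusted p = 0.0811). The block lowered the SE in unwounded GCN2KO against WT cells from 0.14 to 0.085 for KRT4 and from 0.13 to 0.087 for KRT13. For KRT7 under HDW in GCN2KO cells the SE went from 0.10 to 0.12.

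Signs that turned belonged to values that had not passed the test. Left-out samples took KRT4 unwounded from -0.0806 to 0.14, with -0.0261 and -0.0262 without WT replicate 2 or 4, KRT13 in wounded GCN2KO against WT cells from -0.0091 to 0.26 and KRT13 for HDW in GCN2KO cells from -0.22 to 0.0716, with 0.0499 without GCN2KO HDW replicate 1. For HDW in GCN2KO cells KRT8 ran from -0.0013 to 0.16 and KRT18 from -0.0052 to 0.11. In the interaction KRT19 ran from -0.0502 to 0.40 and KRT8 from -0.14 to 0.0241. Leaving out both GCN2KO unwounded replicate 1 and GCN2KO HDW replicate 5 gave -0.0806 for KRT4 and -0.0091 for KRT13. The causes were not tested. Depth limits KRT19, at 5 to 25 counts, and per-length levels depend on the exon model, as for KRT8 at 39.4 RPKM by exon union and 94.8 by longest transcript in WT unwounded cells.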
